A study of Mus musculus with 12 samples.

Results

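The immunoglobulin light chain segments are the V, J and C gene segments of the kappa and lambda loci. They were taken as all rows of the count table whose mouse gene symbol begins with Igkv, Igkj, Igkc, Iglv, Iglj or Iglc, which gave 178 of 51826 rows. Of these, 166 lie in the kappa locus (160 V, 5 J and 1 C segment) and 12 in the lambda locus (3 V, 5 J and 4 C segments). The surrogate light chain gene Igll1 was not a member. RNA of 12 pre-B cell lines was counted, all grown from bone marrow of 2 C57BL/6 mice after 7 days in interleukin 7 (IL7), and age was not given in the sources used here. From each mouse, 3 lines carried the empty retroviral vector pMIG (EV) and 3 carried BCR-ABL1, a constitutively active tyrosine kinase formed by the Philadelphia translocation, in that vector. At 48 h after transduction IL7 was taken away from BCR-ABL1 lines for 1 week, while EV lines stayed in IL7, which came as a supernatant of the J558L plasmacytoma, and were sorted for GFP. Sorting is named for EV lines alone, and BCR-ABL1 lines were selected by growth without IL7. BCR-ABL1, IL7 withdrawal, that selection and sorting therefore cannot be told apart in any comparison of the conditions. Triplicates came from 3 independent experiments by the growth protocol in the labels. Digit and letter of a label were read as the mouse and the line, so that EV 2C is an EV line of mouse 2.

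A light chain gene is assembled in B cell precursors when the RAG1 and RAG2 recombinase joins 1 V segment to 1 J segment, and the joined VJ exon is then spliced to C. Before and during this step unrearranged V and J-C segments are transcribed as well, as germline transcripts. In the kappa locus joining removes or displaces the J segments that lie upstream of the chosen J, whereas those downstream stay in the primary transcript until splicing. V kappa segments on the strand of J and C are joined by deletion, and those on the opposite strand by inversion. Signals of the IL7 receptor and STAT5 are known to hold back kappa transcription and joining, and IRF4 promotes it.

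The sequences of the 5 J kappa segments are shown because their counts separated the lines. They were read from GENCODE M21 transcripts on GRCm38, all lie on the plus strand of chromosome 6, and run from Igkj1 at chr6:70722562-70722599 to Igkj5 at chr6:70723886-70723923. Capitals mark the letters of the pattern TTCGGNNNNGGN or TTTGGNNNNGGN on the coding strand, which encodes the conserved Phe-Gly-X-Gly turn of a functional J.
Igkj1: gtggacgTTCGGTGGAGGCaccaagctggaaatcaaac
Igkj2: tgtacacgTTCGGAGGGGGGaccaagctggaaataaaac
Igkj3: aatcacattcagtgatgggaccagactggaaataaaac
Igkj4: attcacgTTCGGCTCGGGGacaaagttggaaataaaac
Igkj5: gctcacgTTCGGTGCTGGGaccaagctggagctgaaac
Igkj3 held neither pattern in these letters, while the other 4 did.

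The ends of 5 V kappa segments are shown because each of them took the largest or a large share of V kappa counts in some lines. Each is the last 120 bases of the annotated transcript in its own direction, and capitals run from the TGT codon of the conserved cysteine to the end of the segment, where a J is joined. Igkv3-12 ends at chr6:70518730-70518849 (plus), Igkv6-32 at chr6:70074024-70074143 (minus), Igkv10-94 at chr6:68704508-68704627 (minus), Igkv9-124 at chr6:67942074-67942193 (minus) and Igkv14-111 at chr6:68256750-68256869 (plus).
Igkv3-12: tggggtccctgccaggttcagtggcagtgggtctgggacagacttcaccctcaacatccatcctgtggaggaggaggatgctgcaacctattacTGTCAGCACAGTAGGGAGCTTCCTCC
Igkv6-32: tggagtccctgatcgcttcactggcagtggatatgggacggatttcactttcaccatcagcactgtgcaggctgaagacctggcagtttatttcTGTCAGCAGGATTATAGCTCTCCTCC
Igkv10-94: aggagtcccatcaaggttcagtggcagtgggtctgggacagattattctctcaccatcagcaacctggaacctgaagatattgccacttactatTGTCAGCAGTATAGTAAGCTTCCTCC
Igkv9-124: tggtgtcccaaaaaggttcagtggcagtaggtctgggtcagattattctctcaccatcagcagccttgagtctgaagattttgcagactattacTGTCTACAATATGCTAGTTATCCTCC
Igkv14-111: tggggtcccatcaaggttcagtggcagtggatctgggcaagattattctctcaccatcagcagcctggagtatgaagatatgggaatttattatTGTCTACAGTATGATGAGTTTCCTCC
Compared base by base without gaps, the 2 most alike ends were Igkv10-94 and Igkv14-111, identical at 100 of 120 bases, and the least alike were Igkv3-12 and Igkv9-124, identical at 78 of 120 bases. The cysteine codon (TGT or TGC) stood 26 bases before the end in 67 of the 100 V kappa segments annotated as functional and in 35% of the 60 annotated as pseudogenes. Long stretches of some segments recur in their relatives. Of the 50-base windows of the transcript, 58.4% of Igkv3-12, 46.6% of Igkv10-94 and 31.2% of Igkv9-124 occur in another gene. No window of Igkv6-32, Igkv14-111 or Igkc does. Counts of Igkv3-12, Igkv10-94 and Igkv9-124 are therefore uncertain. Reads were paired and longer than these windows, so the share of windows is not the share of uncertain counts.

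Total counts ran from 34791011 to 66011225 per line, and the label of pro-/pre-B cells was checked on marker lists. The 11 pro-/pre-B genes summed to 4933 to 8196 CPM, counts scaled to a library of 1000000, in EV lines and to 4034 to 4996 in BCR-ABL1 lines, and 10 of them exceeded 1 CPM in every line. The exception was Dntt, the terminal transferase of the pro-B stage, at 0.101 to 18.5 CPM in EV and 31.5 to 179.8 in BCR-ABL1 lines. The NK list summed to at most 3.70 CPM, and myeloid, mast, erythroid and stromal lists summed to at most 1.67 CPM in any line, Hba-a1 was at 0 in all, and among T cell genes Lck alone exceeded 1 CPM in every line. The 6 plasma cell genes summed to 246.7 to 389.9 CPM in EV and 320.1 to 361.3 in BCR-ABL1 lines, and the 6 genes of immature and mature B cells to 139.2 to 272.8 and 45.3 to 116.4 CPM. EV 2C stood apart from the other EV lines in J kappa counts, in Iglc1 counts and in how V kappa counts were spread over segments. Ms4a1, which encodes CD20, was at 10.8 CPM there and at 10.7 CPM in EV 2B, and lower in the other lines. The part of these differences in the results that follow was not tested. Where leaving out EV 2C changed a call or moved a value by over 1.5 times, the value without it is given too. This was not done for the mouse differences of single segments, except where stated.

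Light chain RNA was lower in all BCR-ABL1 lines than in any EV line. Kappa segments took 0.0482% to 0.0828% of a line's counts in EV, with a median of 0.0755%, and 0.0114% to 0.0129% in BCR-ABL1 lines, with a median of 0.0122%. Lambda segments took 0.00498% to 0.0167% in EV and 0.000521% to 0.00216% in BCR-ABL1 lines. Neither locus overlapped between the conditions, and without EV 2C the kappa range in EV was 0.0569% to 0.0828%. Among BCR-ABL1 lines the kappa share hardly differed by mouse, at a mean of 0.0119% for mouse 1 and 0.0122% for mouse 2, whereas the lambda share was 0.00174% ± 0.000385 for mouse 1 and 0.00054% ± 1.66e-05 for mouse 2 (SD, n = 3 each). In RNA of whole cultures, fewer cells that express a light chain and less light chain RNA per cell cannot be told apart.

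**Figure D1:**
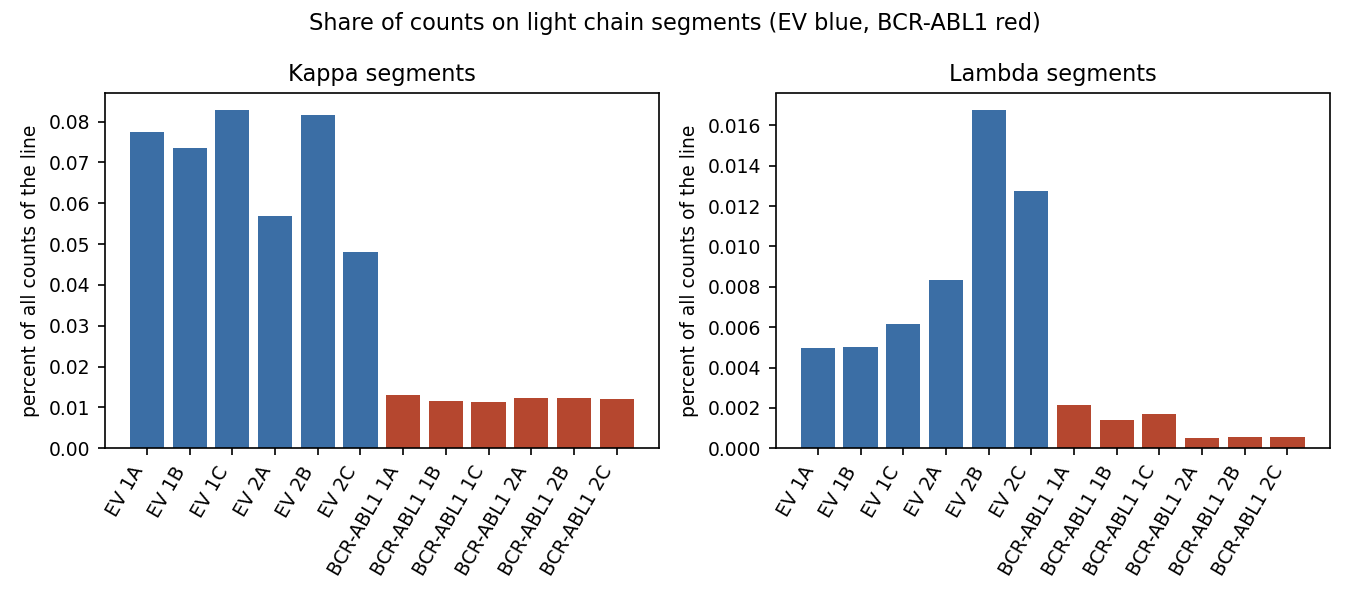
Percent of all counts of a line (vertical axes, starting at 0) on kappa segments (left) and lambda segments (right), 1 bar per line, EV in blue and BCR-ABL1 in red. All 6 BCR-ABL1 bars are below all 6 EV bars in both panels, and lambda is highest in EV 2B at 0.0167%.

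Each segment was tested for a change of over 1.5-fold in a model fitted to 16407 genes with at least 10 counts in at least 3 lines (edgeR quasi-likelihood fit with glmTreat, Benjamini-Hochberg adjusted p under 0.05). Of the 178 segments 92 passed this filter, 8 had no count in any line, and 40 had at most 3 counts in every line. In BCR-ABL1 lines 36 of the 92 were lower and 1 was higher, against 7.58% lower and 6.49% higher of all genes tested. Their median log2 fold change was -1.77, against -0.04 over all genes. However, 36 of the 92 passed the filter through EV lines alone and had to be lower to do so, and 23 of the 36 lower calls are among these. Of the 49 segments that passed in both conditions on their own, 13 were lower and 1 was higher. The share called among all 14304 genes that passed in this way was not taken, and the shares above are for a wider set. Without EV 2C, 47 of 90 segments were lower, against 10.1% of all genes in that fit, and with mouse as a replicate block 41 of 92, against 8.42%. EV 2C was singled out by values of these same segments, so fits without it are no separate support. In 17 segments all BCR-ABL1 lines were below all EV lines, against 13.3% of all genes tested, and in no segment were all above.

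The constant segment of kappa, Igkc (chr6:70726435-70726966, 1 exon), is the C segment to which joined kappa VJ exons are spliced, and it gave the highest counts of all members. Igkc was at 363.7, 352.8 and 416.5 CPM in EV lines 1A, 1B and 1C and at 315.2, 437.0 and 304.2 CPM in EV lines 2A, 2B and 2C. BCR-ABL1 lines had 65.7, 58.2 and 56.2 CPM in mouse 1 and 49.6, 48.7 and 45.2 CPM in mouse 2. All lines of a condition were close together and the conditions did not overlap. Igkc fell by 2.76 on the log2 scale (SE 0.118, edgeR glmTreat adjusted p = 3.10e-07), and the exact two-sided permutation test over all 924 labelings gave p = 0.00216, the smallest it can give. That test ignores the mouse. With labels permuted within each mouse (400 labelings) the exact test gave p = 0.005, again the smallest possible. Both mice showed it, with log2 fold changes of -2.64 in mouse 1 and -2.85 in mouse 2, and the difference between these missed the threshold (edgeR adjusted p = 0.5).

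The lambda constant segments behaved each in its own way. Iglc2 on chromosome 16 was at 3.11, 3.75 and 4.91 CPM in EV lines of mouse 1 and at 54.2, 133.8 and 62.8 CPM in those of mouse 2. In BCR-ABL1 lines it lay between 0.0414 and 0.422 CPM, with 2 to 25 counts per line. It fell by 8.04 on the log2 scale (SE 1.06, edgeR adjusted p = 8.20e-04), and the fall was larger in mouse 2 (-9.79) than in mouse 1 (-3.97), with an interaction of -5.84 on the log2 scale (edgeR adjusted p = 0.00136). Part of this lay in the EV lines, where Iglc2 was higher in mouse 2 than in mouse 1 by 4.41 on the log2 scale (edgeR adjusted p = 4.36e-05).

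Iglc1 ranged from 3.19 to 5.70 CPM in 5 EV lines and was at 31.0 CPM in EV 2C. BCR-ABL1 lines had 3.64, 2.42 and 1.70 CPM in mouse 1 and 0.613, 0.529 and 0.497 CPM in mouse 2. Iglc1 of BCR-ABL1 1A was above that of 2 EV lines, so the conditions overlapped. Its log2 fold change was -2.44 (SE 0.706, edgeR adjusted p = 0.0613), and -1.37 without EV 2C (edgeR adjusted p = 0.164). The exact permutation test of its log2 CPM gave p = 0.00649 over all labelings and p = 0.01 within each mouse. That test asks for any difference, and the model for one beyond 1.5-fold.

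Iglc3 was at 10.3 to 22.5 CPM in EV and separated the mice in BCR-ABL1 lines, with 11.6, 7.98 and 11.1 CPM in mouse 1 and 1.32, 1.44 and 1.43 CPM in mouse 2. Its log2 fold change was -1.51 (SE 0.660, edgeR adjusted p = 0.188) without and -2.07 with mouse as a replicate block (edgeR adjusted p = 0.00796). The change was -0.92 in mouse 1 and -3.24 in mouse 2, and their difference passed the test (interaction -2.32, edgeR adjusted p = 5.55e-04). Exact permutation gave p = 0.0108 over all labelings and p = 0.005, the smallest possible, within each mouse. Of its 50-base windows 22.3% occur elsewhere, in Iglc2 and in the overlapping gene 2010309G21Rik on the opposite strand, so its counts are uncertain. Iglc4 had 34 counts in EV 2C, 16 in EV 2B and at most 4 in the other EV lines, and 0 in all 6 BCR-ABL1 lines, where 3 counts would be 0.0454 to 0.0679 CPM, and it did not pass the filter.

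**Figure D2:**
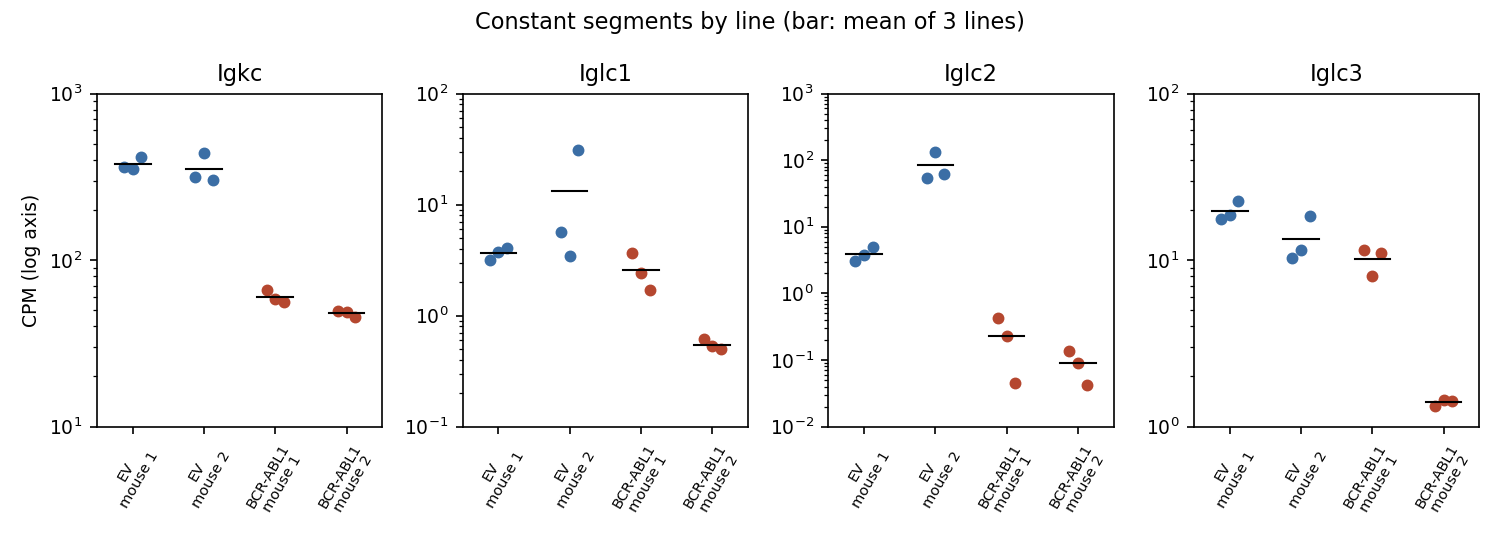
CPM on a log axis of the 4 tested constant segments, with 1 point per line, black bars for the mean of the 3 lines and 1 column for each condition and mouse. Igkc is at 304.2 CPM or more in EV and at 65.7 CPM or less in BCR-ABL1 lines, Iglc2 is highest in EV lines of mouse 2, and Iglc1 has a single high point at 31.0 CPM, EV 2C.

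Per kb of exon, the median EV level was 673.4 CPM for Igkc, 48.3 for Iglc2, 39.7 for Iglc3 and 8.66 for Iglc1. In BCR-ABL1 lines the medians were 99.5 for Igkc, 10.4 for Iglc3, 2.55 for Iglc1 and 0.184 for Iglc2, so that Iglc2 went from the highest median of the lambda constant segments to the lowest tested one. The ranges of Iglc2 and Iglc3 in EV overlapped, and their order went by mouse. Iglc3 was above Iglc2 in every EV line of mouse 1, and Iglc2 was above Iglc3 in every EV line of mouse 2. The EV median of Iglc2 thus lies between the lines of the 2 mice, and Iglc2 was not the highest in mouse 1. The lambda part of all C counts was 6.15% to 7.03% in EV lines of mouse 1, 18.2% to 27.0% in EV lines of mouse 2, 15.4% to 19.2% in BCR-ABL1 lines of mouse 1 and 4.003% to 4.17% in those of mouse 2. Lambda thus had a higher share in BCR-ABL1 than in EV lines in mouse 1 and a lower one in mouse 2, with no overlap between the conditions in either mouse. Within lambda, Iglc3 held 63.9% to 86.4% of C counts in BCR-ABL1 lines and 71.3% to 73.6% in EV lines of mouse 1, while Iglc2 held 55.7% to 89.8% in EV lines of mouse 2.

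Of the V lambda segments, Iglv3 led in all 12 lines. It was at 7.79 to 19.97 CPM in EV, with a median of 14.8, and at 1.22 to 2.68 CPM in lines with BCR-ABL1, with a median of 2.06. It fell by 2.84 on the log2 scale (SE 0.2505, edgeR adjusted p = 2.69e-05). Iglv2 had 8 to 90 counts in EV, the highest in EV 2B at 1.80 CPM, and a single count among all BCR-ABL1 lines, and its mean was at least 9.48-fold lower in them (against a floor of 3 counts per line, edgeR adjusted p = 8.08e-04), and at least 5.16-fold without EV 2B. Iglv1, which is named here as the remaining V lambda segment, was at 1.88 to 4.73 CPM in EV and 0.671 to 1.75 in BCR-ABL1 lines, with a log2 fold change of -1.21 that missed the threshold (edgeR adjusted p = 0.0531) and without EV 2C was -1.28 and passed it (edgeR adjusted p = 0.0391). All 3 V lambda segments were lower in every BCR-ABL1 line than in every EV line. Of the lambda J segments, Iglj1 had log2 fold change -2.03, Iglj3p -1.61 and Iglj3 -1.44, and none passed the test (edgeR adjusted p 0.129 to 0.161). With mouse as a replicate block Iglj3p and Iglj3 passed (edgeR adjusted p = 0.00878 and 0.0299). Iglj1 was at 2.19 CPM in EV 2C and at 0.212 to 0.339 CPM in the other EV lines, and without EV 2C its log2 fold change was -0.86 (edgeR adjusted p = 0.441). Iglj4 had 9 counts in EV 2C and at most 1 elsewhere, and Iglj2, whose annotation overlaps Iglc2, had none.

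In V kappa, 31 of the 77 tested segments were lower and 1 was higher in BCR-ABL1 lines, against 7.58% and 6.49% of all genes, and the median log2 fold change of the 77 was -1.51. Of these 31, 21 had passed the filter through EV lines alone and so had to be lower, and 10 were among the 37 that passed in both conditions. Segments on the minus strand, which face away from J and C, were lower in 24 of 41 tested, with a median log2 fold change of -2.38, and those on the plus strand in 7 of 36, with a median of -0.75. Among segments that passed in both conditions these counts were 8 of 16 and 2 of 21. By distance from Igkj1, 15 of 33 within 1 Mb, 9 of 15 between 1 and 2 Mb and 7 of 29 beyond 2 Mb were lower, and among segments that passed in both conditions 6 of 17, 2 of 4 and 2 of 16. Of 66 tested segments annotated as functional 29 were lower, and of 11 tested pseudogenes 2, both of which had passed through EV lines alone. By family, both tested Igkv13 and both tested Igkv17 segments were lower, as were 5 of 10 Igkv4, 5 of 9 Igkv8 and 4 of 8 Igkv6 segments, against 1 of 9 Igkv3 and 0 of 5 Igkv14 segments, and all lower calls in Igkv4, Igkv13 and Igkv17 had passed through EV lines alone. These counts describe the segments that passed the filter, and the differences between strands, distances and families were not tested. Counts among segments that passed in both conditions have no matching share over all genes.

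**Figure D3:**
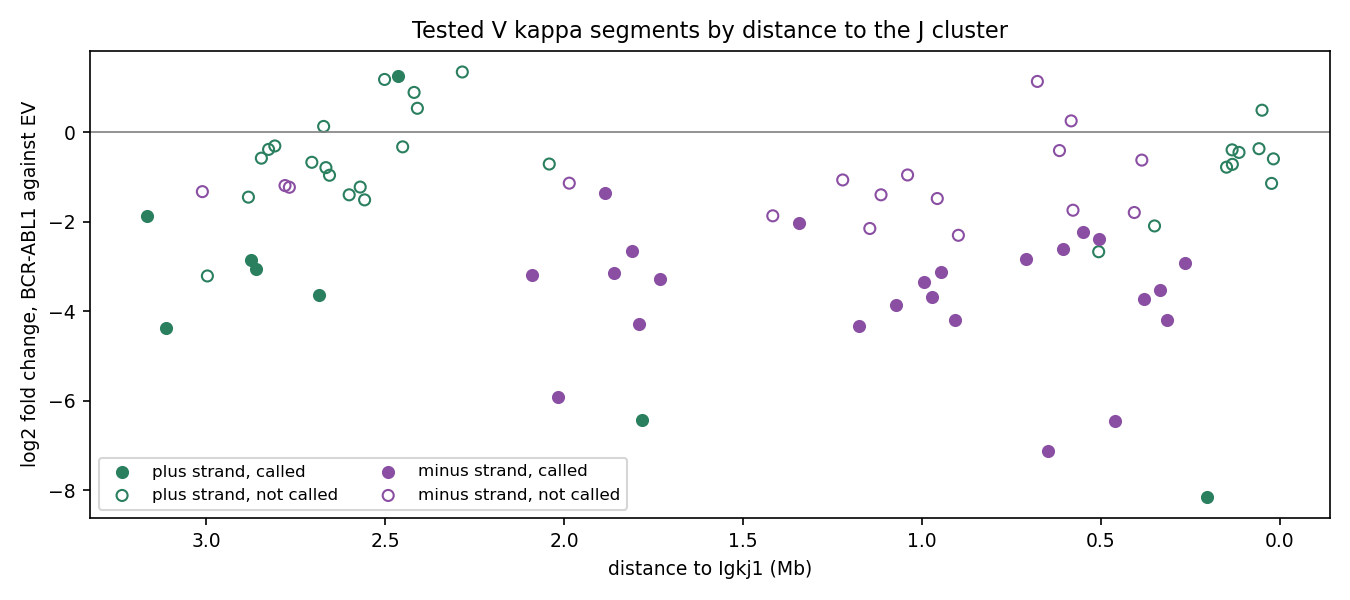
Log2 fold change of BCR-ABL1 against EV (vertical axis) of the 77 tested V kappa segments by their distance to Igkj1 in Mb (horizontal axis, the J cluster at the right), green for plus and purple for minus strand, filled where called. Of the filled points 1 is above 0, Igkv14-111, and the lowest is Igkv3-12 at -8.14.

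Igkv3-12, at chr6:70518250-70518849 and about 0.2 Mb from the J cluster, had the lowest log2 fold change of the members tested, within the error of that of Iglc2. It was at 103.4, 90.1 and 100.2 CPM in EV lines of mouse 1, at 15.3 and 12.3 CPM in EV 2A and 2B and at 110.3 CPM in EV 2C. In BCR-ABL1 lines it lay between 0.104 and 0.378 CPM, with 5 to 20 counts. Every BCR-ABL1 line was thus below the lowest EV line by a wide gap, and the log2 fold change was -8.14 (SE 0.652, edgeR adjusted p = 1.68e-05) with EV 2C and -7.98 without. Igkv6-32 was high in mouse 1 alone, at 52.2, 56.2 and 54.4 CPM in EV lines of mouse 1, 0.235 to 2.81 CPM in those of mouse 2 and 0.126 to 0.294 CPM in BCR-ABL1 lines. It had a log2 fold change of -7.12 (SE 1.34, edgeR adjusted p = 0.00232), at -8.06 in mouse 1 and -2.995 in mouse 2, and the mice differed (interaction 5.05, edgeR adjusted p = 0.00702). Igkv10-94 had the opposite pattern, at 0.0866 to 0.169 CPM in EV lines of mouse 1 and 13.9, 34.5 and 2.62 CPM in EV 2A, 2B and 2C, against 0.0453 to 0.228 CPM in BCR-ABL1 lines. This fold change of -5.92 on the log2 scale (edgeR adjusted p = 0.0198) came with an interaction of -6.10 (edgeR adjusted p = 0.0164), and with mouse as a replicate block the call was lost (edgeR adjusted p = 0.0506).

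Other falls were shared by both mice. Igkv1-135, near the far end of the locus, was at 2.64 to 17.6 CPM in EV, lowest in EV 2C, and at 0.268 to 1.13 in BCR-ABL1 lines (log2 fold change -4.37, SE 0.546, edgeR adjusted p = 2.04e-04). Igkv1-88, which shares no 50-base window with another gene, was at 6.60 to 15.3 CPM in EV and 0.849 to 1.65 in BCR-ABL1 lines (log2 fold change -3.15, SE 0.230, edgeR adjusted p = 1.31e-05). The neighbours Igkv13-84 and Igkv13-85 share 48.3% of their windows with each other. Igkv13-84 had 68 to 383 counts in EV and at most 3 in each BCR-ABL1 line, so that its mean was at least 64.9-fold lower against the floor of 3 counts. Igkv13-85 was at 1.00 to 3.53 CPM in EV and 0.0337 to 0.136 in BCR-ABL1 lines (log2 fold change -4.28, SE 0.336, edgeR adjusted p = 4.52e-05).

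The 5 V segments highest in BCR-ABL1 lines had log2 fold changes from -1.19 to 1.24. Igkv14-111 was the single member that rose, from 1.22 to 2.24 CPM in EV to 2.33, 2.50 and 1.99 CPM in BCR-ABL1 lines of mouse 1 and 5.73, 4.76 and 4.81 CPM in those of mouse 2. BCR-ABL1 1C lay below EV 2C, so the conditions overlapped, and the log2 fold change was 1.24 (SE 0.296, edgeR adjusted p = 0.0438). It was 0.61 in mouse 1 (edgeR adjusted p = 0.522) and 1.68 in mouse 2 (edgeR adjusted p = 0.0415), and the difference of the mice missed the threshold with EV 2C (edgeR adjusted p = 0.0553) and passed it without (edgeR adjusted p = 0.00148). The call was also lost without a gene filter (edgeR adjusted p = 0.0650), with the line pair as a replicate block (edgeR adjusted p = 0.0884), by DESeq2 (adjusted p = 0.167) and in 8 of the 12 fits that left out 1 line (edgeR adjusted p 0.0576 to 0.105). Igkv9-124 was at 3.13 to 14.3 CPM in EV, lowest in EV 2C, and 3.38 to 5.37 in BCR-ABL1 lines. It had a log2 fold change of -1.19 (edgeR adjusted p = 0.0629), and without EV 2C it was -1.37 and passed (edgeR adjusted p = 0.00320). Leaving out the lowest EV line raises the EV level by construction, so that pass is no separate support for a fall. The pseudogenes Igkv14-126-1 and Igkv14-118-2 had log2 fold changes of -0.58 and -0.96 and Igkv1-110 of -0.33, and none of them passed (edgeR adjusted p 0.126 to 1.00).

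Within a line, V kappa counts were spread over many segments in all BCR-ABL1 lines and in EV 2A and 2B, and were held by few in the other EV lines. Igkv3-12 took 38.4%, 35.1% and 35.9% of V kappa counts in EV 1A, 1B and 1C (widest 95% Wilson interval 37.6% to 39.2%, counting error only) and 62.3% in EV 2C (61.3% to 63.2%). The leading segment took 9.73% in EV 2A (Igkv3-12) and 15.2% in EV 2B (Igkv10-94). In BCR-ABL1 lines it took 10.5% to 11.3% in mouse 1, where it was Igkv9-124 in all 3 lines, and 9.75% to 10.8% in mouse 2, where it was Igkv14-111 in all 3 lines. Counted per kb of exon, the same segments led in all 12 lines. The effective number of V kappa segments, the inverse of the chance that 2 counts fall on the same segment, was 5.09, 5.45 and 5.58 in EV lines of mouse 1, 23.3 and 20.99 in EV 2A and 2B, 2.54 in EV 2C and 21.4 to 25.1 in BCR-ABL1 lines. EV 2A thus lay within the range of BCR-ABL1 lines and EV 2B just below it, while the other 4 EV lines were far lower.

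**Figure D4:**
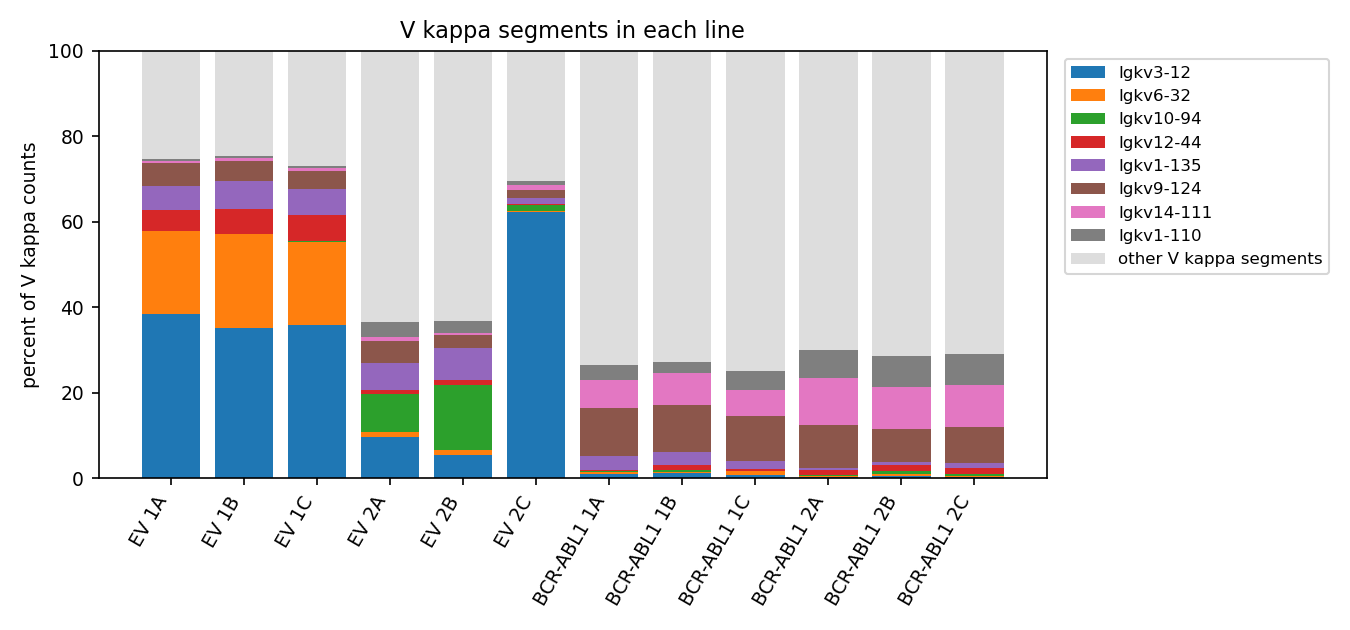
Percent of V kappa counts (vertical axis, 0 to 100) on 8 named segments and on all others (light grey) in each line. Igkv3-12 takes 35.1% to 38.4% in EV lines of mouse 1 and 62.3% in EV 2C, whereas no segment takes over 11.3% in a BCR-ABL1 line.

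Together Igkv3-12, Igkv6-32 and Igkv10-94 held 55.4% to 57.9% of V kappa counts in EV lines of mouse 1, 19.7%, 21.8% and 63.9% in EV 2A, 2B and 2C and 0.795% to 1.94% in BCR-ABL1 lines. These 3 were set aside after their values were seen. The V kappa segments left were at 63.9 to 177.7 CPM in sum in EV, lowest in EV 2C, and at 31.6 to 52.6 CPM in lines with BCR-ABL1, so the fall was not limited to the leading segments. Segments within 1 Mb of Igkj1 held 68.6% to 69.8% of V kappa counts in EV lines of mouse 1 and 31.99% to 35.5% in BCR-ABL1 lines of mouse 1. Without those 3 segments the same shares were 27.9% to 29.8% and 31.1% to 34.7%. In mouse 2 segments within 1 Mb held 31.3%, 33.7% and 70.3% in EV 2A, 2B and 2C and 18.8% to 20.4% in BCR-ABL1 lines, and without the 3 segments 25.4%, 34.5% and 21.8% against 18.4% to 19.6%. Once the 3 were set aside, the EV lines were thus all below the BCR-ABL1 lines in mouse 1 and all above them in mouse 2. The share of plus strand segments among those left was 39.3% to 61.0% in EV, highest in EV 2C, and 57.2% to 65.8% in BCR-ABL1 lines. With the 3 segments included, pseudogenes held 4.23% to 8.90% of V kappa counts in EV and 12.6% to 17.2% in BCR-ABL1 lines, with no overlap. Their summed level was lower in BCR-ABL1 lines, at 4.22 to 8.49 CPM against 10.9 to 14.4 CPM. Of the V kappa CPM left without the 3, pseudogenes made up 12.7 of 63.9 in EV 2C. That is a larger part than in any BCR-ABL1 line, the largest being 8.49 of 48.8 in BCR-ABL1 2C, so the conditions then overlapped. In the other EV lines the part stayed below that of all BCR-ABL1 lines.

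Lines of the same mouse and condition used V kappa alike, with 1 exception. The usage that 2 lines have in common, as the sum over segments of the smaller of their 2 percentages, was 91.9% to 93.9% for EV lines of mouse 1, 83.2% to 84.4% for BCR-ABL1 lines of mouse 1 and 87.7% to 90.5% for those of mouse 2. Of the EV lines of mouse 2, 2A and 2B had 76.3% in common, and EV 2C had 43.8% and 38.2% in common with them, less than the 57.4% to 61.6% that it had in common with EV lines of mouse 1. BCR-ABL1 lines of different mice had 68.2% to 72.8% in common, more than the 27.2% to 52.8% between an EV and a BCR-ABL1 line of the same mouse. V kappa counts per line were 5201 to 18145 in EV and 1422 to 3164 in BCR-ABL1 lines, and sampling at low counts lowers this measure.

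The J kappa segments followed a different course from Igkc. Igkj2, Igkj3, Igkj4 and Igkj5 were at 16.2 to 42.3 CPM in the 5 EV lines other than 2C and at 4.60 to 7.98 CPM in lines with BCR-ABL1. In EV 2C they were at 0.271, 0.398, 0.362 and 1.70 CPM, below every BCR-ABL1 line, while Igkc was at 304.2 CPM in that line. With EV 2C, Igkj5 passed the test (log2 fold change -1.89, SE 0.676, edgeR adjusted p = 0.0379), whereas Igkj2, Igkj3 and Igkj4 had log2 fold changes of -1.63 to -1.92 that did not (edgeR adjusted p 0.0950 to 0.195). The Igkj5 call was lost by DESeq2 (adjusted p = 0.0542), with the line pair as a replicate block (edgeR adjusted p = 0.192), in mouse 2 alone (edgeR adjusted p = 0.381) and on leaving out any 1 line other than EV 2C (edgeR adjusted p 0.0564 to 0.0842). Without EV 2C all 4 passed, with log2 fold changes of -1.89 to -2.18 (edgeR adjusted p 3.03e-05 to 2.77e-04). EV 2C is singled out for its low counts in these same segments, so leaving it out raises the EV level by construction. These p-values are therefore no separate support for the fall.

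Igkj1, the J segment nearest to the V cluster, stood apart from the other 4 and also between the mice. It was at 3.21, 2.95 and 3.46 CPM in EV lines of mouse 1, 14.8, 18.4 and 0.127 CPM in EV 2A, 2B and 2C, and 3.34 to 3.86 CPM in BCR-ABL1 lines. EV lines of mouse 1 and BCR-ABL1 lines were thus at nearly the same level, and the log2 fold change was -0.95 (SE 0.995, edgeR adjusted p = 0.726), at -1.21 without EV 2C (edgeR adjusted p = 0.203) and at 0.21 in mouse 1 alone. Without EV 2C the mice differed in the BCR-ABL1 effect on Igkj1 (edgeR adjusted p = 2.27e-06), while with it the difference was not detected (edgeR adjusted p = 0.423). EV 2C was the lowest line in Igkj1 too, so the fits without it carry the same limit. Its share of J kappa counts was 3.74% to 4.05% in EV lines of mouse 1, 11.6% and 10.6% in EV 2A and 2B, 4.43% in EV 2C and 10.6% to 15.2% in BCR-ABL1 lines. Igkj5 held 59.5% of J kappa counts in EV 2C, from 94 of 158 counts, against 22.1% to 27.8% in the other 11 lines.

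Set against Igkc, J kappa counts were higher in BCR-ABL1 lines. J kappa segments are shorter than a read, so a read on one can also cover a V segment or Igkc. How such reads were counted is not given in the sources used here, and their part in these ratios was not tested. Per 100 Igkc counts there were 20.5 to 23.6 J kappa counts in EV lines of mouse 1, 40.5 and 39.6 in EV 2A and 2B, 0.939 in EV 2C and 48.1 to 56.7 in BCR-ABL1 lines, so that all BCR-ABL1 lines were above all EV lines. V kappa counts per 100 Igkc counts did not move together in the mice. They were 67.1 to 74.0 in EV and 54.7 to 57.8 in BCR-ABL1 lines of mouse 1, and 50.0 to 58.2 in EV and 98.3 to 109.0 in BCR-ABL1 lines of mouse 2.

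**Figure D5:**
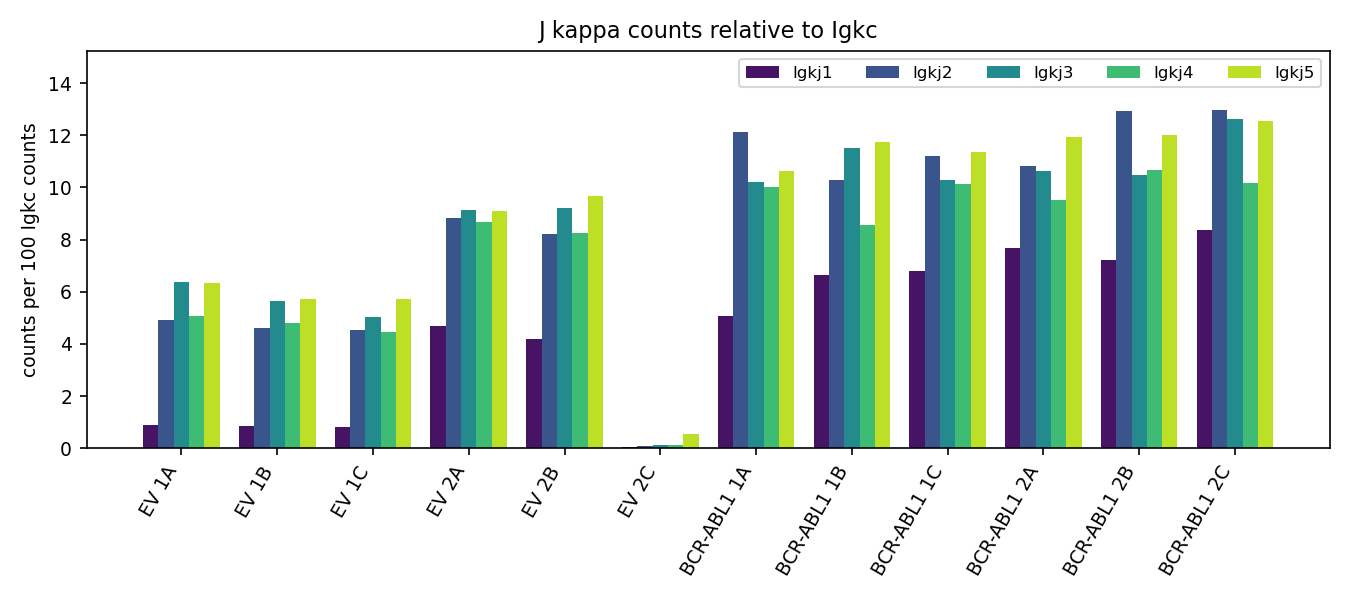
Counts of each J kappa segment per 100 Igkc counts (vertical axis, starting at 0) in each line, 1 colour per segment. The bars of EV 2C are all below 1, the first bar (Igkj1) is low in EV lines of mouse 1, and the BCR-ABL1 lines have similar bars for both mice.

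The BCR-ABL1 effect differed between the mice in 24 of the 92 tested segments (edgeR interaction test, adjusted p under 0.05), against 16.1% of all genes tested, and in 42 of 90 without EV 2C, where 34.8% of all genes were called. Besides those above, Igkv12-44 was at 13.1 to 17.0 CPM in EV lines of mouse 1 and 0.398 to 2.39 in those of mouse 2, against 0.135 to 0.741 CPM in BCR-ABL1 lines (log2 fold change -4.20, interaction 5.01, edgeR adjusted p = 0.00117). The pseudogene Igkv9-128 and Igkv4-63 had at most 20 counts in any line, with interactions of 5.55 and 2.51 (edgeR adjusted p = 0.0272 and 0.0280). In the Igkv3 family 8 of the 9 tested segments differed, all except Igkv3-12, which differed too without EV 2C (edgeR adjusted p = 0.00104). These 8, named after their values were seen, are Igkv3-1, Igkv3-2, Igkv3-4, Igkv3-5, Igkv3-7, Igkv3-8, Igkv3-9 and Igkv3-10, which all lie between Igkv3-12 and the J cluster. Igkv3-2, for example, was at 1.95, 1.18 and 1.22 CPM in EV lines of mouse 1, 4.03, 8.56 and 3.35 CPM in those of mouse 2, 1.95 to 2.41 CPM in BCR-ABL1 lines of mouse 1 and 0.870 to 0.882 in those of mouse 2. In all 8 the log2 fold change was above 0 in mouse 1 and below 0 in mouse 2. Because 5 relatives share windows with Igkv3-12, counts within the family are uncertain.

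Between the mice within EV, 13 segments were higher and 7 lower in mouse 2 (20 of 92), against 10.8% of all genes tested in either direction. Without EV 2C 38 of 90 passed, against 17.7% of all genes. The 2 largest differences were Igkv10-94, higher in mouse 2 by 7.08 on the log2 scale (edgeR adjusted p = 2.84e-04), and Igkv6-32, lower in mouse 2 with a log2 difference of -5.07 (edgeR adjusted p = 1.64e-04). Within BCR-ABL1 lines 5 segments passed, against 3.26% of all genes. These were Igkv1-117, Igkv2-116 and Igkv15-103, which were higher in mouse 2 with log2 differences of 3.17, 2.95 and 2.53, and Iglc3 and Iglj3p, which were lower in mouse 2 with log2 differences of -2.87 and -2.92. The first 3 lie in the distal part of the locus, were outside the rule for named segments and are given because they are all that passed. With 1 animal on each side, these tests compare lines of 2 animals.

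Of 50 genes that act on light chain loci or on the pre-B cell receptor, 3 rose and 6 fell with BCR-ABL1, with a median log2 fold change of -0.25. The shares of all genes tested that were higher and lower are those given above. The higher ones were the cyclin genes Ccnd2 (log2 fold change 3.05) and Ccnd3 (0.82) and Dntt, which adds bases at V, D and J joints (4.29). In mouse 1 alone Dntt rose by 9.40 and Ccnd2 by 5.09 on the log2 scale, and in mouse 2 alone their log2 fold changes of 2.08 and 2.24 missed the threshold (edgeR adjusted p = 0.428 and 0.0821), and the mice differed in both (edgeR interaction adjusted p = 0.00423 and 0.00979). The lower ones were Bcl6 (-4.08), a repressor that acts at the pre-B stage, Bach2 (-1.51), the heavy chain gene Ighm (-1.08), Cxcr4 (-1.08), the IL7 receptor gene Il7r (-1.06) and Pou2f2 (-0.91), which encodes a factor that binds the octamer of immunoglobulin promoters (edgeR adjusted p 1.37e-05 to 0.0499). Without EV 2C 3 were higher and 6 lower too. Of the recombinase genes, Rag1 was at 30.5, 33.9 and 33.1 CPM in EV lines of mouse 1, 89.0, 148.1 and 14.6 CPM in EV 2A, 2B and 2C and 24.1 to 49.6 CPM in BCR-ABL1 lines (log2 fold change -0.67, edgeR adjusted p = 0.739). EV 2A and 2B were thus highest and EV 2C was lowest. Rag2 was at 0.940 to 6.04 CPM in EV and 2.54 to 7.52 in BCR-ABL1 lines (log2 fold change 0.29, edgeR adjusted p = 1.00). Irf4 was at 372.0 to 597.5 CPM in EV and 249.2 to 255.9 in BCR-ABL1 lines, without overlap, but its log2 fold change of -0.78 did not pass the test for over 1.5-fold (edgeR adjusted p = 0.0986). The surrogate light chain genes Igll1 and Vpreb1 had log2 fold changes of 0.17 and 0.35 (edgeR adjusted p = 1.00 for both), but in mouse 1 alone both rose, by 1.19 and 1.51 on the log2 scale (edgeR adjusted p = 8.13e-06 and 2.42e-06). The mice differed in the effect on both (edgeR interaction adjusted p = 0.00542 and 3.72e-04).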

How the data were processed

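RNA of 12 lines (6 EV, 6 BCR-ABL1, 3 per mouse and condition) was sequenced from stranded total RNA libraries. The authors deposited whole-number counts per Ensembl gene, without normalization or pooling. The submitters' processing notes name GRCm38, FastQC 0.11.5, Trimmomatic 0.36, TopHat2 2.1.1, Bowtie2 2.3.2, featureCounts 1.5.3, R 3.6.1 and edgeR 3.18.1. The strand setting and the treatment of reads with several hits are not given in the sources used here. Both bear on segments with close relatives. The number of columns left unused was 0.

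Symbols and positions came from GENCODE M21 (GRCm38), which named 51633 of 51826 rows. A further 16 V rows in the kappa locus carry other symbols and are no members. Counts were fitted in R 4.3.3 with edgeR 4.0.16 and limma 3.58.1 (TMM, quasi-likelihood, glmTreat at 1.5-fold, Benjamini-Hochberg over all tested genes), and CPM were scaled by TMM with a prior count of 2 for log2 CPM. SE is that of the difference of mean log2 CPM. Differences between mice within a condition used glmTreat, and the interaction of mouse and condition glmQLFTest. Alternatives included DESeq2 1.42.0 with the same 1.5-fold limit. The fits were tested on simulated data. Plots used matplotlib in Python.

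The members and lists were chosen with earlier results of these data known. Segments were named by rule as all C and J segments, the 5 highest V segments of each condition, each leading V segment, the 5 largest rises and falls of V segments without overlap and the 5 called V segments with the smallest p of the mouse difference. Control genes were named where called, with Rag1, Rag2, Irf4, Igll1 and Vpreb1. The labels of both conditions carry the digit 1 or 2 and a letter, without the word mouse. As the lines came from 2 mice in triplicate, the digit was read as the mouse. Comparisons by mouse rest on this reading, which pairs the conditions by digit. To check this pairing, each line was centred on its condition mean and correlated with the lines of the other condition. Within a mouse r was 0.0642 to 0.219 and across mice -0.193 to -0.0702. With 2 mice, centring on the condition mean makes the mean covariation across mice opposite in sign to that within a mouse. The 2 ranges are therefore not separate evidence. The positive sign within a mouse is what pairing by mouse number would give, and the values are small. With mouse means removed, lines of equal number and letter correlated between -0.0954 and 0.0713. The chi-square per gene between lines of 1 mouse and condition was 9.34 to 443.0, and no 2 lines were treated as 1 library. The p-values measure the spread between lines of 2 mice.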

Additional observations from a re-analysis of the deposited data

Results flagged for a closer look

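In groups of 6 lines, 75 sets of values were checked for a single line far from the others (Dixon's test), which chance alone flags in about 1 of 20, and 7 were flagged. EV 2C was flagged for its share of V kappa counts on plus strand segments (84.3%), for Iglc1 (31.0 CPM), for Iglj1 (2.19 CPM) and for Iglj4 (0.163 CPM). EV 2B was flagged for Iglv2 (1.80 CPM). BCR-ABL1 1A was flagged for Igkj2 (7.98 CPM) and Igkv1-88 (1.65 CPM), each the highest of that condition.

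Among the 29 named segments that were tested, the BCR-ABL1 effect differed between mouse 1 and mouse 2 in 9 (edgeR interaction test, mouse 2 minus mouse 1, log2 scale). The difference was negative, with a larger fall in mouse 2, for Iglc1 (-4.10), Iglc3 (-2.32), Iglj3p (-2.16), Iglc2 (-5.84) and Igkv10-94 (-6.10). It was positive, with a larger fall in mouse 1, for Igkv6-32 (5.05), Igkv12-44 (5.01), Igkv9-128 (5.55) and Igkv4-63 (2.51). EV 2C enters the Iglc1 difference, and its 31.0 CPM raises the EV level of mouse 2. The Iglc1 difference without that line is not given here.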

How the results depend on the processing

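Alternatives that combine the mouse block with leaving out EV 2C, and usage per kb of exon, were chosen after seeing the data. Of the 92 tested segments, 1 rose and 36 fell with BCR-ABL1. The count of higher segments was 0 without a gene filter (1081 of 40750 genes) and 0 with the line pair as a replicate block (1076 of 16407 genes). By DESeq2 it was 0 (943 of 16407 genes). It was 4 in mouse 1 alone (2724 of 16407 genes) and 0 to 1 leaving out 1 line. By DESeq2 27 segments were lower (838 of 16407 genes). In the DESeq2 fit 44 segments had an unadjusted p under 0.05 in either direction, against 2597 of 16407 genes. The count of lower segments was 19 of 56 under filterByExpr, which tests fewer segments, where 976 of 15038 genes were lower. Against no change it was 57 (4286 of 16407 genes). It was 57 in mouse 1 alone (1934 of 16407 genes) and 18 in mouse 2 alone (424 of 16407 genes). With mouse as a replicate block it was 41 (1381 of 16407 genes) and with the line pair 26 (965 of 16407 genes). With the mouse block without EV 2C it was 56 (1864 of 16321 genes). Leaving out 1 line gave 24 (1055 of 16322 genes, without BCR-ABL1 1B) to 47 (1645 of 16321 genes, without EV 2C). Control genes (3 higher, 6 lower of 50) gave 7 higher in mouse 1 alone, where 2724 of 16407 genes were higher. They gave 1 higher and 2 lower in mouse 2 alone, where 611 and 424 of 16407 genes were. Against no change 18 were lower (4286 of 16407 genes). Mouse differences of the effect numbered 24, and 17 to 42 leaving out 1 line. The 17 came without BCR-ABL1 1B, where 662 positive and 1302 negative differences passed among 16322 genes. The 42 came without EV 2C, where 5685 of 16321 genes passed. Mouse differences within EV numbered 20, and 10 under filterByExpr, where 1238 of 15038 genes were higher and 304 lower. Leaving out 1 line gave 8 to 38. The 8 came without EV 1C (1022 higher and 263 lower of 16267 genes) and the 38 without EV 2C (2890 of 16321 genes). Those within BCR-ABL1 numbered 5, and 9 by the likelihood ratio fit, where 419 of 16407 genes were higher and 358 lower. Against no change they numbered 12 (561 higher and 522 lower of 16407 genes). Leaving out 1 line gave 3 to 14, highest without EV 2C (521 higher and 464 lower of 16321 genes).

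Iglc1 (-2.44) passed by the likelihood ratio fit (-2.44), against no change (-2.44), in mouse 2 alone (-4.59), with the mouse block without EV 2C (-1.64) and without BCR-ABL1 1A (-2.89, edgeR adjusted p = 0.041), and ranged from -2.89 to -1.37 leaving out 1 line. Iglc3 (-1.51) passed against no change (-1.51), with mouse as a replicate block (-2.07), with the line pair (-2.06), in mouse 1 alone (-0.92), in mouse 2 alone (-3.23) and with the mouse block without EV 2C (-1.84). Signs turned for Igkj1 in mouse 1 alone (0.21), Rag2 in mouse 1 alone (-0.52) and with the mouse block without EV 2C (-0.051), Igll1 (-0.51) and Vpreb1 (-0.43) in mouse 2 alone, and Igkv1-110, which ranged from -0.489 to 0.0184 leaving out 1 line. Of these, Igll1 (1.19) and Vpreb1 (1.51) passed the threshold in mouse 1 alone. The cause was not tested.

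With functional segments alone the mean kappa share in BCR-ABL1 lines was 0.0114%, the leading V kappa share 12.5% and the effective number 20.03. That number was 22.1 over segments with 10 or more counts in 3 lines, and the exponential of Shannon entropy was 37.3 in BCR-ABL1 and 20.9 in EV lines. The calls and the directions of Igkc and Iglc2 held in all alternatives run.

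In BCR-ABL1 lines 1 count was 0.0151 to 0.0226 CPM, and V kappa counts summed to 1422 to 3164, so shares of single segments there rest on few counts. A segment at 0 counts allows a level of up to 0.0454 to 0.0679 CPM (3 counts). Intervals and floors cover counting error only. With 2 mice, differences between mice rest on 1 animal each.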
